A study of Sus scrofa with 34 samples.

Results

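The genes described here are those of the circadian clock, the machinery that gives liver and gut cells an internal day. They were named by symbol (PER1, PER2, PER3, CRY1, CRY2, NR1D1, NR1D2, DBP, CIART and CLOCK), and every row of the liver and ileum count tables whose pig Ensembl identifier carried one of these symbols was taken. Of the 10 genes, 9 were matched to a row among 25880 gene rows in each table, and PER3 was not paired with an identifier. The rule reads symbols alone. All pigs were weaned crossbred piglets sampled at day 28 of feeding. They received a basal diet (CTR), the basal diet with a phytogenic feed additive (PFA; Digestarom, a mixture of oregano and caraway oils, carvacrol, methyl salicylate and menthol), a diet to which heated, oxidized rapeseed oil was added (OO), or both (OO + PFA). The diets with oxidized oil therefore also held more fat than the others. RNA was sequenced from the liver of 6 pigs per diet and from the ileum of 5 CTR and 5 PFA pigs, and 10 pigs gave both tissues. Each diet was fed in a single pen, so that diet and pen cannot be told apart. The hour of sampling was not given in the sources used here. Pigs carry a diet code (C is CTR, P is PFA, OP is OO + PFA) followed by their number in the library title.

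The clock works as a loop. CLOCK and its partner BMAL1 (also called ARNTL) bind E-box sequences and switch on the PER and CRY genes, whose proteins return to the nucleus and repress that pair. CIART (CHRONO) is another repressor of the pair, NR1D1 and NR1D2 (REV-ERBα and REV-ERBβ) are nuclear receptors that repress BMAL1 and are opposed by the ROR receptors, and DBP is a transcription factor that carries the rhythm to D-box genes of metabolism. In the liver and the intestine the phase of the loop follows feeding, and these transcripts rise and fall within a day. BMAL1 and NPAS2 (a paralog of CLOCK that can take its place) were read beside the 9 genes.

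One OO + PFA liver, pig OP-77, was left out, as the authors did. The other livers number 23. OP-77 stood apart in this table, with 36.6% of read pairs not uniquely assigned and a summed level of 2 red cell markers of 2357 CPM (counts per 1000000 counts) against 123 to 592 CPM in the other livers. Depth ran from 18738055 to 42446834 counted read pairs per library over 34 libraries, and the spread between pigs, not counting error, sets the precision at most of the levels below. The tissues matched their labels: the summed level of 5 hepatocyte markers was 81036 to 190766 CPM in the livers and 1130 to 3845 CPM in the ileum samples, and that of 4 enterocyte markers was 12287 to 24596 CPM in the ileum and 233 to 589 CPM in the livers. The transthyretin gene TTR was at 0 in all ileum libraries. Liver library titles began with PigLiv (14 of the 23 livers) or PL (9), and within-form values are given below where they bear on a result. These are bulk samples, in which fewer cells of a type and less RNA per cell cannot be told apart.

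The 300 bases before the gene start are shown for PER1, NR1D1, CRY1 and BMAL1, because NR1D1, CRY1 and BMAL1 varied together in the livers, as described below, and the PER1 window holds the letters that CLOCK and BMAL1 bind. They are RefSeq sequences on Sscrofa11.1, read 5′ to 3′ on the strand of the gene, and capitals mark the E-box CACGTG and the E′-box CACGTT, the latter read as AACGTG on the gene's strand where it lies on the other one.
PER1: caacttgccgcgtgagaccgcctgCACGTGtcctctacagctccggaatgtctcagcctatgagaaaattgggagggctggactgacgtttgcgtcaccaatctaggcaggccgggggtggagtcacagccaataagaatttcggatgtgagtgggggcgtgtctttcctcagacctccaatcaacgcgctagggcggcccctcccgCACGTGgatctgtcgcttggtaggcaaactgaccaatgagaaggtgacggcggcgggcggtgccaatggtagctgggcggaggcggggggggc
NR1D1: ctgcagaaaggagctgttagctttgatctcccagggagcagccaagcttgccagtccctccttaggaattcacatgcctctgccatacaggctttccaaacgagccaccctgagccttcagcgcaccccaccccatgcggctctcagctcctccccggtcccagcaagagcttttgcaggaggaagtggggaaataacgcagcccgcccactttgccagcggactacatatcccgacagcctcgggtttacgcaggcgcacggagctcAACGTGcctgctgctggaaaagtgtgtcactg
CRY1: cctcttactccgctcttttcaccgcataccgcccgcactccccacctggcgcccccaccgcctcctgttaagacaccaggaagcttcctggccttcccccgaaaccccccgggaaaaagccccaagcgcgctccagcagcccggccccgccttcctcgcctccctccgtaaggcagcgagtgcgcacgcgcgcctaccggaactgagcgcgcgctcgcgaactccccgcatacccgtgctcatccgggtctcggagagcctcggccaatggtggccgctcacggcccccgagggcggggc
BMAL1: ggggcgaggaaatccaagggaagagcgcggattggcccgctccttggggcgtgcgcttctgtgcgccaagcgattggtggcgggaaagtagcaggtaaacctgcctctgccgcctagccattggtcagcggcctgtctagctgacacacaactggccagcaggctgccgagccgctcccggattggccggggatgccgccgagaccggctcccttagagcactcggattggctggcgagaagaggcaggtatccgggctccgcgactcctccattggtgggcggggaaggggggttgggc
The PER1 window (chr12:53376724-53377023, minus strand) held the E-box at positions -276 and -93 from the gene start. The NR1D1 window (chr12:22263249-22263548, plus strand) held an E′-box at -32. None of the searched letters were in the windows of CRY1 (chr5:13274965-13275264, plus strand) and BMAL1 (chr2:46025175-46025474, minus strand). The search covered both strands with the E-box, the E′-box, the D-box TTATGTAA, the core AGGTCA of the ROR and REV-ERB element, and the cyclic AMP element TGACGTCA. Among 19500 windows of the same length, 7.31% held the E-box, 5.58% the E′-box, 0.877% the D-box, 14.6% the core AGGTCA and 1.76% the cyclic AMP element. The window of PER3 held an E-box and a D-box, that of CRY2 an E′-box and AGGTCA, and those of NR1D2 and DBP held AGGTCA, while the windows of PER2, CIART, CLOCK and NPAS2 held none. A match of letters is not a bound site.

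On Sscrofa11.1 the 9 genes lie on 8 chromosomes: PER1 (ENSSSCG00000017983) at chr12:53361863-53376723, PER2 (ENSSSCG00000016338) at chr15:137793419-137837854, CRY1 (ENSSSCG00000000164) at chr5:13275265-13429566, CRY2 (ENSSSCG00000013270) at chr2:16587101-16620380, NR1D1 (ENSSSCG00000036933) at chr12:22263549-22274131, NR1D2 (ENSSSCG00000027017) at chr13:10756954-10791219, DBP (ENSSSCG00000003148) at chr6:53986955-53993044, CIART (ENSSSCG00000038374) at chr4:98800849-98809573 and CLOCK (ENSSSCG00000008909) at chr8:54793323-54910192. BMAL1 (ENSSSCG00000013397) lies at chr2:45895637-46025174, on the chromosome of CRY2. Expression is given as CPM after TMM scaling within a tissue. Levels of different genes were compared only per kilobase of RefSeq exon. On that scale NR1D2 and PER1 led in the liver, with medians over 23 livers of 7.25 and 6.29 CPM per kilobase. CLOCK (4.57), CRY2 (4.44), BMAL1 (2.35), PER2 (2.33), DBP (1.98), CIART (0.877), CRY1 (0.719), NR1D1 (0.670) and NPAS2 (0.385) followed in CPM per kilobase. In the 10 ileum samples the order was CLOCK (12.2), NR1D2 (11.98), BMAL1 (9.97), NPAS2 (6.30), PER1 (5.39), CIART (3.85), CRY2 (3.80), PER2 (1.95), CRY1 (1.73), NR1D1 (1.08) and DBP (0.935). Neighbours in either order overlapped in their ranges over pigs in every case.

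The first question was whether the oil or the additive altered the clock genes in the liver. None of the 9 genes differed between diets in edgeR's quasi-likelihood test at an adjusted p of at most 0.05, in any of 7 liver comparisons. Over the 4 diets, 0 of 9 were called while 3.66% of 13831 genes were. The counts were 0 of 9 in OO against CTR (2.71% of all genes called), in PFA against CTR (0% called), in OO + PFA against CTR (5.08%), in OO + PFA against OO (0%), in the diets with oxidized oil against those without (11.8%), and in the interaction of oil and additive (0%). At an unadjusted p under 0.05, 2 of the 9 genes passed over the 4 diets (25.2% of all genes did), 0 in OO against CTR (21.4%), 1 in PFA against CTR (11%), 0 in OO + PFA against CTR (22.6%), 1 in OO + PFA against OO (8.5%), 1 for the oxidized oil (27.8%) and 2 for the interaction (13.6%). DESeq2 called PER1 over the 4 diets (adjusted p = 0.0461), where it called 12.8% of all genes, and no other of the 9 genes in these comparisons. Each diet mixed both title forms, and a fit with this form as a covariate added no call. The OO, PFA and OO + PFA comparisons share their CTR livers.

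Among the repressors, PER1 had the lowest adjusted p over the 4 diets, without passing the threshold. Its level ran from 27.3 to 107 CPM (median 42.0) in CTR, from 10.8 to 70.7 CPM (median 27.4) in PFA and from 26.4 to 67.02 CPM (median 35.4) in OO, and was 38.5, 68.2, 68.5, 94.9 and 141 CPM in the 5 OO + PFA livers. The ranges of all 4 diets overlapped, with the highest liver in OO + PFA and the lowest in PFA. The log2 change was -0.71 ± 0.393 (SE) for PFA against CTR and 0.94 ± 0.409 for OO + PFA against OO, with edgeR adjusted p = 0.512 and 0.560. The interaction was 1.65 ± 0.567 on the log2 scale (unadjusted p = 0.00779, adjusted p = 0.226, edgeR). PER1 moved with the slope of a library's expression on GC content (r = 0.65 within diets). This slope was -0.205 to 0.082 in CTR, -0.475 to 0.067 in PFA, -0.379 to 0.418 in OO and 0.041 to 0.487 in OO + PFA livers. Its part in the diet changes was not tested further. Over the alternative settings, GC correction among them, the interaction was 1.30 to 2.06 and OO + PFA against OO 0.51 to 1.12, none called. Over the 4 diets the edgeR adjusted p of PER1 was 0.125, and it was 0.0371 without the PFA liver P-138, which held 70.7 CPM against 28.6 CPM in the next PFA liver.

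PER2, its paralog, ranged from 15.2 to 37.1 CPM (median 19.98) in CTR, from 14.7 to 21.9 CPM (median 18.7) in PFA and from 11.5 to 24.8 CPM (median 14.3) in OO, and was 15.7, 16.2, 17.3, 25.1 and 43.8 CPM in OO + PFA. All diets overlapped. PER2 was -0.54 ± 0.260 on the log2 scale in OO against CTR (adjusted p = 0.234, edgeR), and its interaction term was 0.88 ± 0.376 (unadjusted p = 0.0277, adjusted p = 0.312). CRY1 ranged from 5.89 to 24.98 CPM (median 15.6) in CTR, from 7.27 to 30.3 CPM (median 19.8) in PFA and from 4.40 to 18.4 CPM (median 8.69) in OO, and was 8.08, 9.45, 10.1, 20.9 and 25.9 CPM in OO + PFA. Each diet therefore held both low and high CRY1 livers, and the log2 change in OO was -0.65 ± 0.423 (adjusted p = 0.385, edgeR). CRY2 ranged from 19.2 to 45.2 CPM (median 28.8) in CTR, from 18.8 to 34.7 CPM (median 22.6) in PFA and from 29.0 to 45.9 CPM (median 38.4) in OO, and was 17.6, 27.3, 27.9, 32.6 and 39.5 CPM in OO + PFA. The lowest OO liver lay above the CTR median, yet the ranges overlapped, and the log2 change of the diets with oxidized oil was 0.32 ± 0.147 (unadjusted p = 0.0378, adjusted p = 0.153, edgeR). CIART ranged from 3.28 to 7.21 CPM (median 4.80) in CTR, from 2.30 to 3.44 CPM (median 3.21) in PFA and from 1.93 to 5.90 CPM (median 3.48) in OO, and was 2.595, 2.603, 3.05, 3.65 and 6.72 CPM in OO + PFA. The PFA livers were narrowly spread, and 4 of the 6 lay below the lowest CTR liver, at a log2 change of -0.63 ± 0.260 (unadjusted p = 0.0243, adjusted p = 0.410, edgeR).

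**Figure D1:**
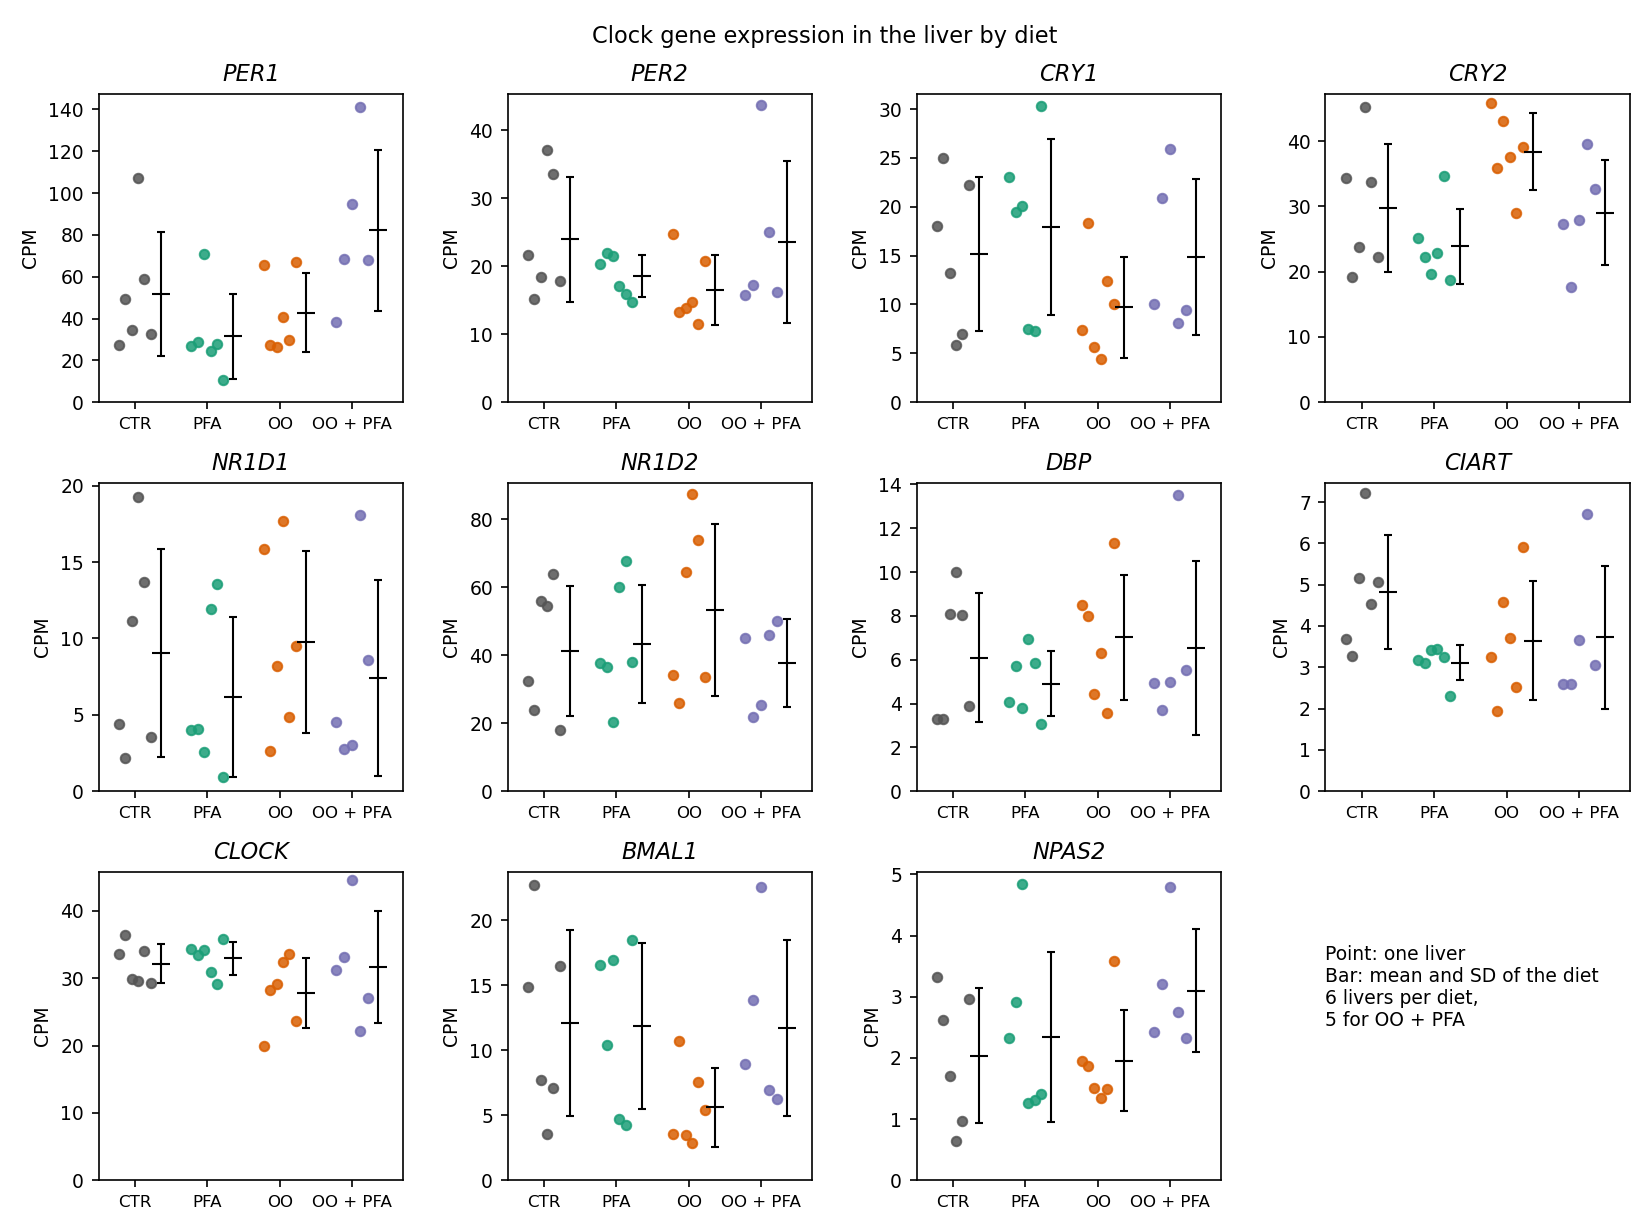
Expression of the clock genes in the liver in CPM (vertical axes, from 0) for the 4 diets; each point is 1 liver and the bar gives the mean and SD of 6 livers (5 for OO + PFA). The diets overlap for all 11 genes shown, and NR1D1 spans 0.952 to 19.3 CPM within the 23 livers.

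The REV-ERB receptors differed widely between pigs of the same diet. NR1D1 ranged from 2.18 to 19.3 CPM (median 7.78) in CTR, from 0.952 to 13.6 CPM (median 4.03) in PFA and from 2.63 to 17.7 CPM (median 8.86) in OO, and was 2.79, 3.002, 4.56, 8.59 and 18.1 CPM in OO + PFA. Its standard errors were the largest of the 9 genes, and the log2 change was 0.12 ± 0.609 in OO and -0.54 ± 0.613 in PFA against CTR (adjusted p = 0.932 and 0.767, edgeR). NR1D2 ranged from 17.9 to 63.9 CPM (median 43.5) in CTR, from 20.3 to 67.7 CPM (median 37.8) in PFA and from 25.9 to 87.4 CPM (median 49.4) in OO, and was 21.9, 25.4, 44.9, 46.0 and 50.1 CPM in OO + PFA. The diets overlapped over most of their ranges. DBP, the output factor, ranged from 3.28 to 10.003 CPM (median 5.97) in CTR, from 3.06 to 6.95 CPM (median 4.89) in PFA and from 3.59 to 11.3 CPM (median 7.16) in OO, and was 3.697, 4.92, 4.99, 5.54 and 13.5 CPM in OO + PFA. Pig OP-79 alone set the top of the OO + PFA range of DBP. CLOCK, the activator, was the steadiest: it ranged from 29.3 to 36.4 CPM (median 31.8) in CTR, from 29.1 to 35.9 CPM (median 33.8) in PFA and from 19.9 to 33.6 CPM (median 28.7) in OO, and was 22.2, 27.1, 31.2, 33.2 and 44.6 CPM in OO + PFA. Its largest log2 change against CTR was -0.21 ± 0.140 in OO (adjusted p = 0.404, edgeR).

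BMAL1, the partner of CLOCK, ranged from 3.59 to 22.7 CPM (median 11.3) in CTR and from 2.89 to 10.7 CPM (median 4.49) in OO. It was -1.11 ± 0.455 on the log2 scale in OO against CTR and did not pass the test (unadjusted p = 0.0224, adjusted p = 0.159, edgeR).

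The other fixed lists gave few calls, apart from the immediate early genes. Of these, edgeR called 4 of 7 over the 4 diets (3.66% of all genes) and 4 of 7 for the oxidized oil (11.8%). Of 9 modifiers of clock proteins, CSNK1D (casein kinase 1 delta, which phosphorylates PER proteins) rose in OO + PFA against CTR by 1.10 on the log2 scale (adjusted p = 0.0483, edgeR), and of 10 clock-controlled outputs TSPAN4 did so by 1.52 (adjusted p = 0.0376). After correction for GC content, the values were 0.14 for CSNK1D and 0.40 for TSPAN4, and neither was called. The calls were also lost without any 1 of 16 livers for CSNK1D (adjusted p up to 0.126) and any 1 of 8 livers for TSPAN4 (up to 0.1004). Of 33 alternative settings in all, they were lost in 20 for CSNK1D and 10 for TSPAN4. With oxidized oil over both levels of the additive, CSNK1D rose by 0.85 (adjusted p = 0.0200, and at most 0.0449 without any single liver) and TSPAN4 by 1.01 (adjusted p = 0.0273, but up to 0.0626 without OO-102, OO-130 or OP-79), and with GC correction these values were 0.09 and 0.15 and not called. Of 8 glucocorticoid targets, 1 was called in OO + PFA against CTR: TAT (tyrosine aminotransferase) rose by 1.42 (adjusted p = 0.00309, edgeR). With oxidized oil over both levels of the additive, TAT rose by 1.05 (adjusted p = 0.000446) and ZBTB16, a transcriptional repressor, by 0.83 (adjusted p = 0.0255, but 0.0524 without OO-102 and 0.0628 without OP-98). Of 7 immediate early genes, JUNB (2.76, adjusted p = 0.0118) and IER2 (2.11, adjusted p = 0.0276) rose in OO + PFA against CTR, where the median log2 change of the 7 was 1.70 against -0.01 over all genes tested. The call of IER2 was lost without any 1 of 5 livers (C-71, C-100, C-110, OP-79 and OP-137, adjusted p up to 0.0656), and in 6 of 33 alternative settings in all. Over all genes, 4.09% were called higher in OO + PFA against CTR and 8.95% for the oxidized oil. For the oxidized oil, JUNB (1.67), IER2 (1.41), ATF3 (1.26) and JUN (0.76) were called higher, of which ATF3 was lost without P-67, OO-102, OP-98 or OP-137 (adjusted p up to 0.0730), and JUN without any 1 of 16 livers or with GC correction. Of 32 alternative settings in all, the call for the oxidized oil was lost in 5 for ATF3, 18 for JUN and 3 for ZBTB16. PER1 is a textbook target of the glucocorticoid receptor and of the cyclic AMP pathway, and its log2 change in OO + PFA against CTR was 0.67 ± 0.408 (adjusted p = 0.350, edgeR).

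Within diets, the livers differed widely in these genes. The SD of log2 CPM around the diet mean was 1.21 for NR1D1, and 98.6% of genes had a smaller one. It was 0.865 for BMAL1, 0.814 for CRY1, 0.729 for PER1, 0.670 for NR1D2, 0.628 for DBP, 0.466 for PER2, 0.451 for CIART, 0.369 for CRY2 and 0.242 for CLOCK, against a median of 0.347 over all genes. From the lowest to the highest of the 23 livers, NR1D1 rose 20.3-fold (from 0.952 CPM in P-95 to 19.3 CPM in C-80), PER1 13.1-fold, BMAL1 7.86-fold, CRY1 6.88-fold and CLOCK 2.24-fold. In the ileum NR1D1 again had the largest SD (0.834), followed by DBP (0.715), while CRY1 (0.197) lay below the median of all genes (0.302).

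**Figure D2:**
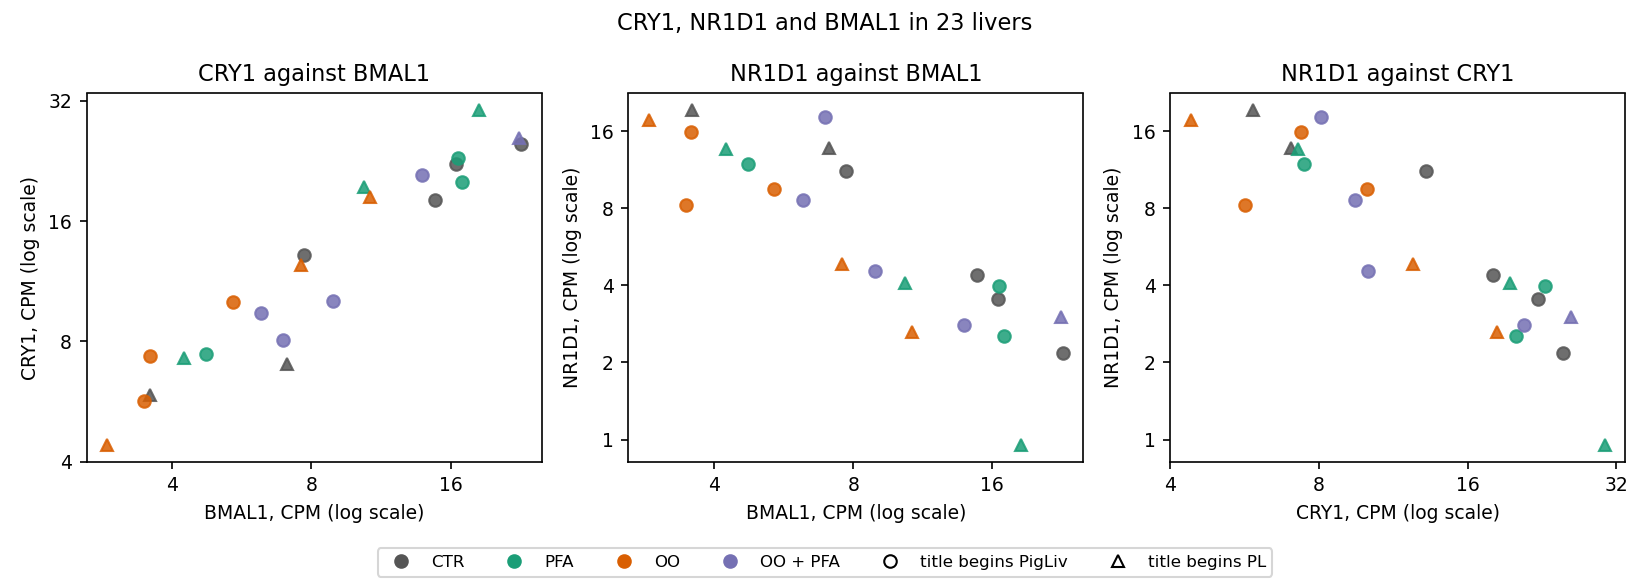
CRY1, NR1D1 and BMAL1 plotted against each other in the 23 livers (CPM, log2 axes); colours are diets and symbols the 2 forms of library title. CRY1 goes up and NR1D1 goes down along BMAL1 in livers of every diet (r = 0.962 and -0.914 within diets).

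The differences between pigs were shared most closely among 3 of the genes. Livers high in BMAL1 were high in CRY1 and low in NR1D1: pig P-95 held 18.5 CPM of BMAL1, 30.3 CPM of CRY1 and 0.952 CPM of NR1D1. Pig C-80 held 3.59 CPM of BMAL1, 5.89 CPM of CRY1 and 19.3 CPM of NR1D1. After each diet's mean was subtracted, CRY1 and BMAL1 correlated over the 23 livers with Pearson's r = 0.962 and Spearman's rho = 0.958. The permutation p was 1e-05 (100000 permutations, the smallest they can give), and the adjusted p over 13830 genes was 0.0461. NR1D1 and BMAL1 gave r = -0.914 and rho = -0.907, and NR1D1 and CRY1 gave r = -0.911 and rho = -0.924, each with a permutation p of 1e-05 and an adjusted p of 0.0346 among genes tested with NR1D1. Only 3 of 13830 genes (0.0217%) were called with CRY1 and 7 (0.0506%) with NR1D1. Among genes with a symbol, BMAL1 had the highest r with CRY1 and the lowest with NR1D1.

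These 3 relations kept their sign in each form of library title. For CRY1 and BMAL1, r was 0.943 in the 14 PigLiv livers and 0.967 in the 9 PL livers, and 0.952 without the 2 livers farthest from the median. For NR1D1 and BMAL1 the values were -0.863, -0.962 and -0.944, and for NR1D1 and CRY1 they were -0.804, -0.969 and -0.886. With the title form subtracted along with the diet, the adjusted p rose to 0.0691 for CRY1 and BMAL1 and to 0.207 for NR1D1 with either gene. An adjusted p is limited by the smallest p the permutations can give, and by how many genes share that p. For CRY1 and BMAL1 the rise, and the loss of the call, therefore cannot show whether the title form plays a part. Leaving out 1 liver at a time kept the r of CRY1 and BMAL1 between 0.957 and 0.970.

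The other genes covaried less closely with this trio. NR1D2, the second REV-ERB, had r = -0.777 with CRY1, -0.750 with BMAL1 and 0.681 with NR1D1, and no gene was called with it (0% of 13830). With GC-corrected values it was closer to the trio, with r = -0.887 with CRY1 (adjusted p = 0.0221), -0.862 with BMAL1 (adjusted p = 0.0221) and 0.866 with NR1D1 (adjusted p = 0.0414), among 8 genes called with it. CRY2 went the opposite way to its paralog CRY1 (r = -0.685) and with NR1D1 (r = 0.728), also with 0% of genes called. Among the genes tested with DBP, NR1D1 (r = 0.738), BMAL1 (-0.609), CRY1 (-0.568) and CRY2 (0.613) were called. PER1 correlated with PER2 (r = 0.680, adjusted p = 0.00773), CIART (0.607, adjusted p = 0.0171) and DBP (0.551, adjusted p = 0.0433), but 25.6% of all genes were called with PER1, 17.4% with PER2 and 21.1% with DBP, so that calls of these 3 genes were not particular to the clock. Their levels also moved with library composition: r with a library's slope of expression on GC content was 0.65 for PER1, 0.65 for DBP, 0.54 for PER2 and -0.57 for CLOCK, against 0.27 for NR1D1, -0.04 for CRY1 and -0.09 for BMAL1. After correction for GC content, 140 genes were called with PER1, 149 with PER2 and 0 with DBP. The part of composition in these correlations was not tested further. CIART was called with 72 genes (0.521%) and CLOCK with 396 (2.86%), none of them another of the 9 genes, BMAL1 or NPAS2. The p-values were adjusted separately for each clock gene, so a pair can be called from 1 side only. Among the genes tested with PER1, CIART was called, and among those tested with DBP, CIART (r = 0.633) and CLOCK (r = -0.627) were.

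The highest and the lowest r were then sought among genes with a symbol, with the 9 clock genes themselves left out. Closer pairs among the 9, such as CRY1 with NR1D1 (-0.911) or with NR1D2 (-0.777), therefore do not appear. By this rule BMAL1 stood beside CRY1 (highest) and NR1D1 (lowest), and NPAS2 beside NR1D2 (lowest, r = -0.77). The other nearest genes were DHDH (0.90) and STX7 (-0.90) for PER1, CSF3 (0.86) and ELOVL5 (-0.82) for PER2, ZNF691 (-0.79) for CRY1, BCR (0.78) and SMARCA1 (-0.77) for CRY2, CA11 (0.82) for NR1D1, POLH (0.82) for NR1D2, GMPPA (0.89) and FNBP1L (-0.87) for DBP, PACC1 (0.81) and GRAMD1C (-0.81) for CIART, and AGO3 (0.91) and ALG3 (-0.84) for CLOCK, each over 23 livers within diets.

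**Figure D3:**
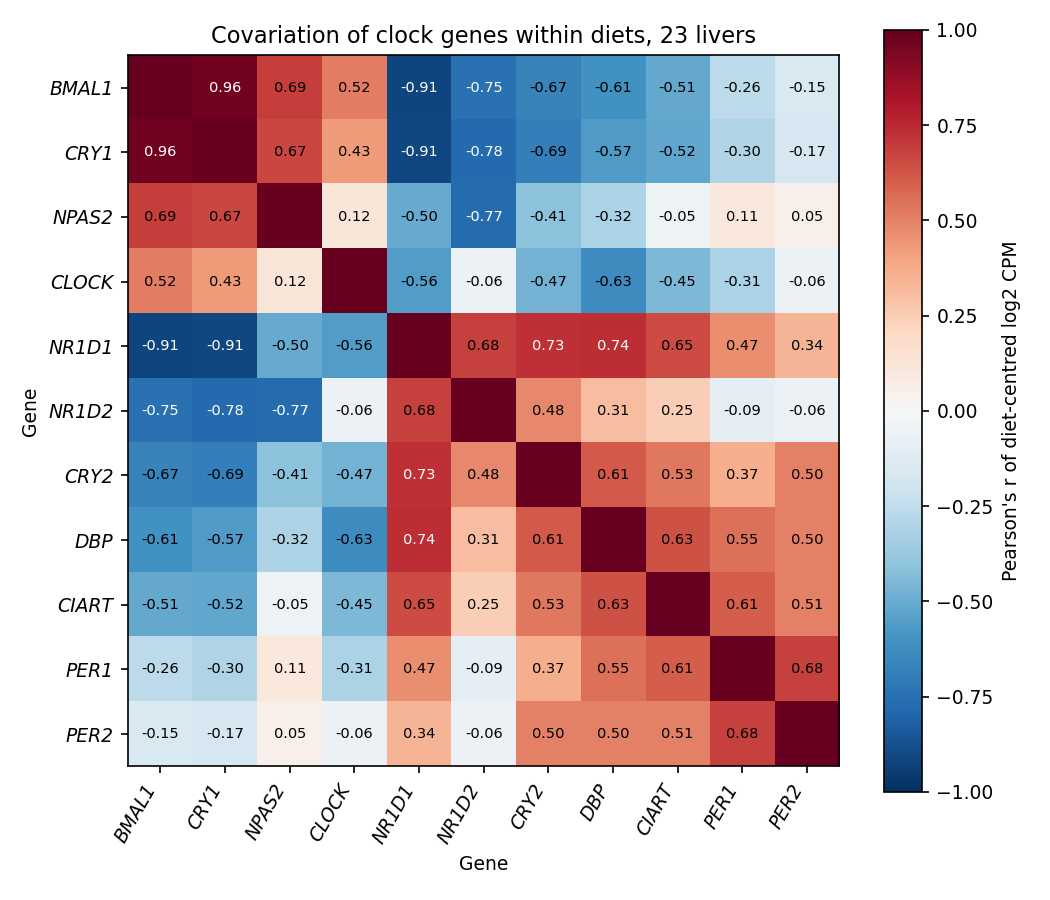
Pearson's r between pairs of clock genes over 23 livers, after subtraction of each diet's mean log2 CPM (red positive, blue negative). BMAL1, CRY1 and NPAS2 form a positive block, and NR1D1, NR1D2 and CRY2 are negative with all 3.

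In the ileum, the question was whether the additive altered the same genes. Of the 9, 0 were called in PFA against CTR (0% of 14300 genes were called, and 2.8% had an unadjusted p under 0.05), by edgeR or DESeq2, and 1 had an unadjusted p under 0.05 with edgeR. CRY1 was 19.7, 24.3, 26.8, 26.8 and 32.1 CPM in CTR and 28.4, 31.3, 32.5, 33.7 and 34.5 CPM in PFA. The groups overlapped through pig C-110, and the log2 change was 0.31 ± 0.133 (unadjusted p = 0.0397, adjusted p = 0.991, edgeR). NR1D1 was 5.25, 6.04, 9.71, 12.7 and 25.6 CPM in CTR and 2.69, 3.54, 7.53, 8.15 and 8.36 CPM in PFA. Its log2 change was -0.97 ± 0.461 (unadjusted p = 0.0578, adjusted p = 0.991), with C-71 far above the rest. PER1 was 30.7, 35.2, 42.6, 47.2 and 71.0 CPM in CTR and 21.6, 27.1, 27.2, 28.8 and 57.2 CPM in PFA, and again 1 pig of the lower group, P-134, lay inside the upper one (log2 change -0.49 ± 0.286, adjusted p = 0.991, edgeR).

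The remaining genes overlapped between the ileum groups and gave no call. PER2 was 8.98, 11.7, 13.5, 16.6 and 20.1 CPM in CTR and 7.27, 12.2, 16.2, 17.2 and 18.3 CPM in PFA. CRY2 was 22.8, 23.97, 25.1, 26.1 and 33.9 CPM in CTR and 17.1, 22.4, 24.5, 26.0 and 32.1 CPM in PFA. NR1D2 was 49.2, 67.1, 69.0, 71.5 and 73.0 CPM in CTR and 34.2, 51.4, 55.7, 58.2 and 83.8 CPM in PFA. All 3 overlapped. DBP was 0.794, 2.52, 2.93, 3.01 and 3.94 CPM in CTR and 1.15, 1.43, 2.22, 2.72 and 2.84 CPM in PFA. CIART was 11.4, 14.1, 14.98, 15.6 and 16.0 CPM in CTR and 12.04, 12.8, 14.96, 16.6 and 17.1 CPM in PFA. CLOCK was 72.5, 73.5, 83.3, 86.8 and 101.8 CPM in CTR and 72.0, 73.5, 82.9, 88.8 and 110 CPM in PFA, nearly the same 5 levels in either group. A difference between the effect of PFA in the ileum and in the liver of the same pigs was called for 0 of the 9 genes (0% of 14264 genes called by edgeR, 4.77% with an unadjusted p under 0.05). CIART came nearest, with a difference of 0.65 ± 0.245 on the log2 scale (unadjusted p = 0.0204, adjusted p = 0.920).

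The same 10 pigs allowed the tissues to be compared within pigs. In this comparison 20 libraries were scaled jointly by TMM, so that CPM differ from those above. Of the 9 genes 6 were called, 2 higher in the ileum and 4 lower, against 78.7% of 14264 genes (41% higher and 37.6% lower), so that the share of clock genes called was not above the background. The sign against 0 depended on the scaling for some of them. A change of scaling shifts all genes of a library alike, so a gene's side of the median of all genes is no test of stability. The 10 most abundant genes held 23.8% to 34.8% of the counts in the 23 livers and 12.53% to 16.2% in the ileum samples. TMM factors were 1.39 to 1.57 in the ileum and 0.555 to 0.749 in the liver, and scaling by total counts in place of TMM moved the median log2 difference of all genes from 0.05 to 1.14.

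**Figure D4:**
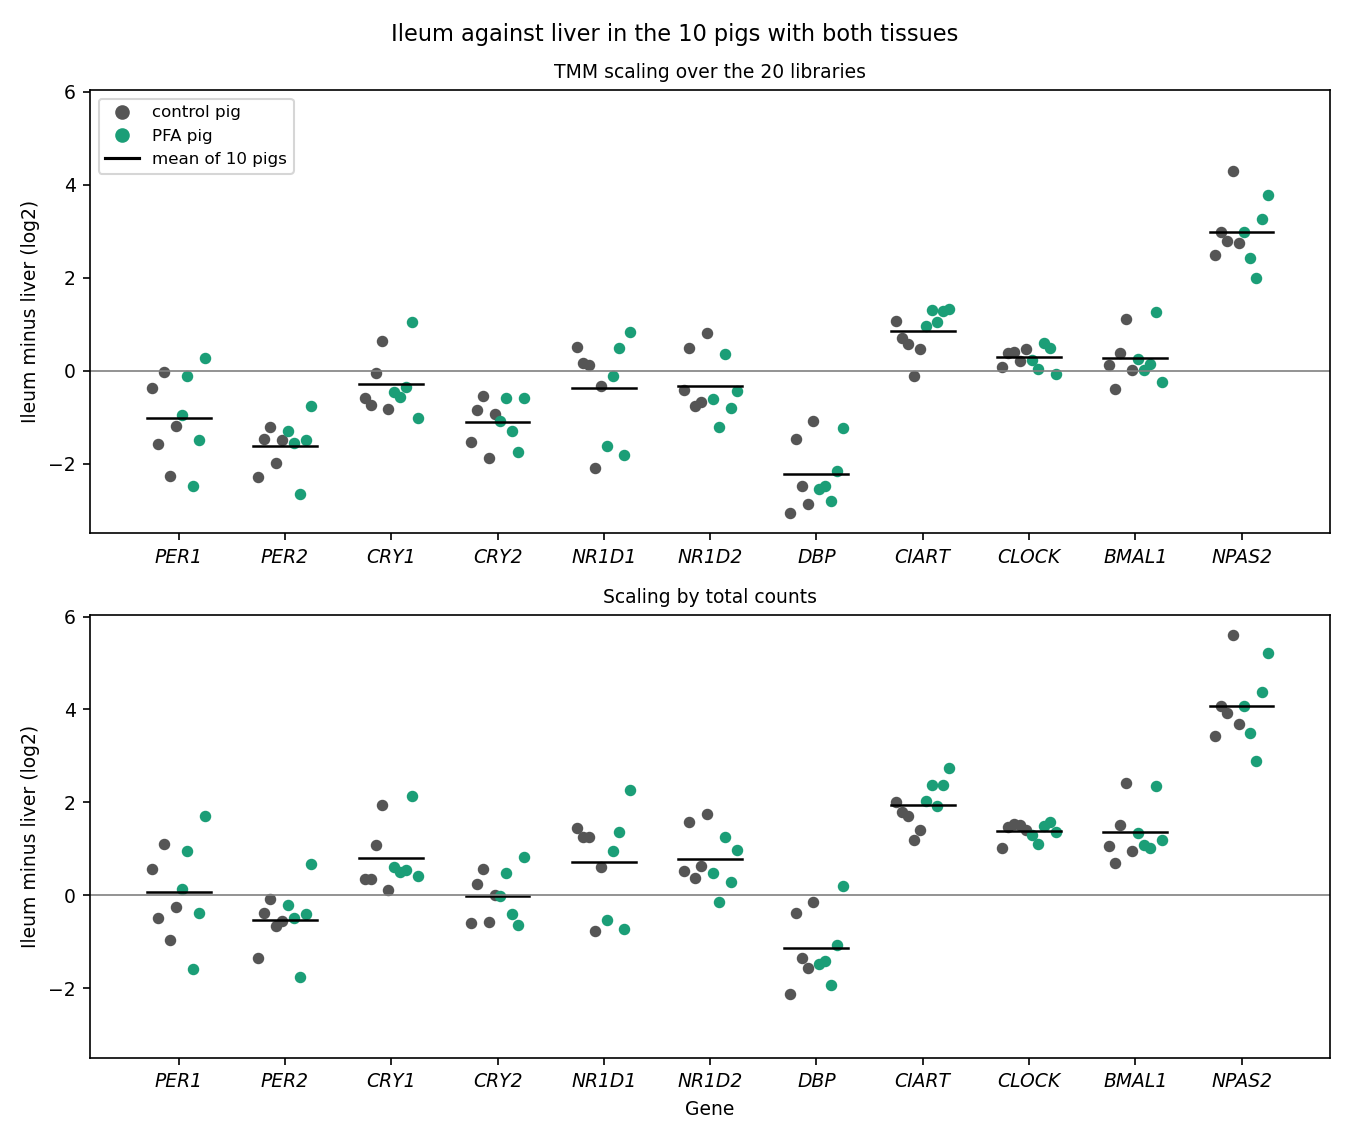
Difference of ileum and liver (log2) for each clock gene in each of the 10 pigs, after TMM scaling (top) and after scaling by total counts (bottom); lines are means. DBP and PER2 have means below 0 and CIART, CLOCK and NPAS2 above 0 under both scalings, whereas PER1, CRY1, NR1D1 and NR1D2 change sign as the median of all genes moves from 0.05 to 1.14.

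With either scaling, DBP and PER2 were lower in the ileum and CIART, CLOCK and NPAS2 higher. DBP was 1.61 ± 0.663 CPM (SD, n = 10) in the ileum and 7.40 ± 3.42 CPM in the liver, lower in 10 of 10 pigs, with a log2 difference of -2.20 ± 0.217 (SE, adjusted p = 3.42e-07, edgeR). With total counts it was -1.11 (adjusted p = 0.000457). PER2 was 9.72 ± 2.85 CPM in the ileum and 29.6 ± 9.55 CPM in the liver, lower in 10 of 10 pigs, with a difference of -1.61 ± 0.160 (adjusted p = 3.74e-07), and -0.52 with total counts (adjusted p = 0.0197). The size of both differences thus depended on the scaling. CIART was 9.96 ± 1.32 CPM in the ileum and 5.75 ± 2.13 CPM in the liver, higher in 9 of 10 pigs (0.85 ± 0.148, adjusted p = 0.000109, edgeR), and the difference was 1.94 with total counts. CLOCK was 57.7 ± 8.39 CPM and 47.2 ± 3.77 CPM, higher in 9 of 10 pigs (0.28 ± 0.081, adjusted p = 0.00527), and 1.38 with total counts, but 0.05 after correction for GC content (adjusted p = 0.515). NPAS2, which was below 7 CPM in every liver, rose in 10 of 10 pigs, by 2.005 to 4.29 on the log2 scale, with a fitted difference of 2.93 ± 0.191 (adjusted p = 3.74e-09, edgeR) and 4.01 with total counts.

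The other 5 genes did not keep a call under both scalings. PER1 was -1.02 ± 0.260 by TMM (lower in 9 of 10 pigs, adjusted p = 0.00241, edgeR) and 0.068 by total counts (adjusted p = 0.820). CRY2 was -1.11 ± 0.143 by TMM (lower in 10 of 10 pigs, adjusted p = 6.02e-06) and -0.01 by total counts (adjusted p = 0.939). CRY1 (-0.31), NR1D1 (-0.39) and NR1D2 (-0.33) were not called by TMM and were higher by total counts, by 0.79, 0.69 and 0.77 (adjusted p = 0.00183, 0.0385 and 0.000735). By TMM, CRY1 was called lower without pig 75 (-0.45) or 80 (-0.41), and NR1D2 without pig 92 (-0.46), 110 (-0.43) or 138 (-0.44). Both were also called lower with GC correction, CRY1 at -0.66 and NR1D2 at -0.79. Relative to the median of all genes, these 5 genes lay lower in the ileum, a place that a change of scaling can hardly alter. Among the other core factors, RORA (-2.20) and the DBP relatives TEF (-2.13) and HLF (-2.08) were called lower in the ileum by TMM, as were NFIL3 (-1.56) and BHLHE40 (-0.79). NPAS2, BMAL2 (2.50) and BHLHE41 (0.93) were called higher. BHLHE40 changed sign with total counts (0.31). BMAL1 was 0.25 ± 0.153 (adjusted p = 0.149), and 1.34 with total counts.

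The last comparison asked whether a pig high in a clock gene in the liver was high in the ileum as well. None of the 9 genes was called over the 10 pigs (0% of 13058 genes were, and 4.49% had an unadjusted p under 0.05 with r above 0), by Pearson's r or Spearman's rho with permutation tests. Pearson's r was 0.61 for NR1D1, 0.54 for CRY1, 0.41 for DBP, 0.28 for CIART, 0.24 for NR1D2, 0.22 for PER1, 0.18 for PER2, 0.12 for CLOCK and 0.07 for CRY2, against a median of 0.126 over all genes. NR1D1 had rho = 0.77 (permutation p = 0.0127, adjusted p = 0.844) beside its r of 0.61 (permutation p = 0.0599, adjusted p = 0.883). Without the 2 pigs farthest from the median liver value the r of NR1D1 was 0.55, and that of CRY1 was 0.54. The r of CRY1 depended on single pigs: it was 0.07 without C-80 and 0.83 without P-75 (permutation p = 0.00964, adjusted p = 0.646). With GC-corrected values, r was 0.654 for PER1 (permutation p = 0.0404, adjusted p = 0.652), 0.513 for NR1D2, 0.105 for DBP and -0.139 for CRY2, and none was called.

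BMAL1 gave r = 0.905 and rho = 0.794, the 34th highest r of 13058 genes (permutation p = 0.00086, adjusted p = 0.371), and 0.911 after each diet's mean was subtracted. In the 6 pigs with PigLiv titles, r was 0.901 for BMAL1, 0.704 for NR1D1 and 0.551 for CRY1, and the other 4 pigs were too few. Its ileum levels left a gap, however. The 4 pigs C-80, C-71, P-75 and P-134 held 16.5, 20.9, 22.1 and 22.5 CPM, and the other 6 pigs held 32.6 to 41.1 CPM. Within those 6 pigs r was 0.107 (exact permutation p = 0.889). The split was made after the values were seen and narrows the range of ileum BMAL1, so that this p-value decides nothing. Ileum BMAL1 moved with log2 depth (r = -0.821 within diets, n = 10) and with the library's slope on GC content (r = -0.625), and ileum CRY1 did likewise (-0.753 and -0.641). Their part in the ileum levels was not tested. In the liver the same 4 pigs held 3.59, 7.71, 4.24 and 10.4 CPM of BMAL1. NPAS2 gave r = 0.67 (permutation p = 0.0340, adjusted p = 0.872). Between genes within the ileum, centred on diet, r was 0.709 for CRY1 and BMAL1, -0.601 for NR1D1 and BMAL1, and -0.310 for CRY1 and NR1D1, in 10 samples and without a test.

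**Figure D5:**
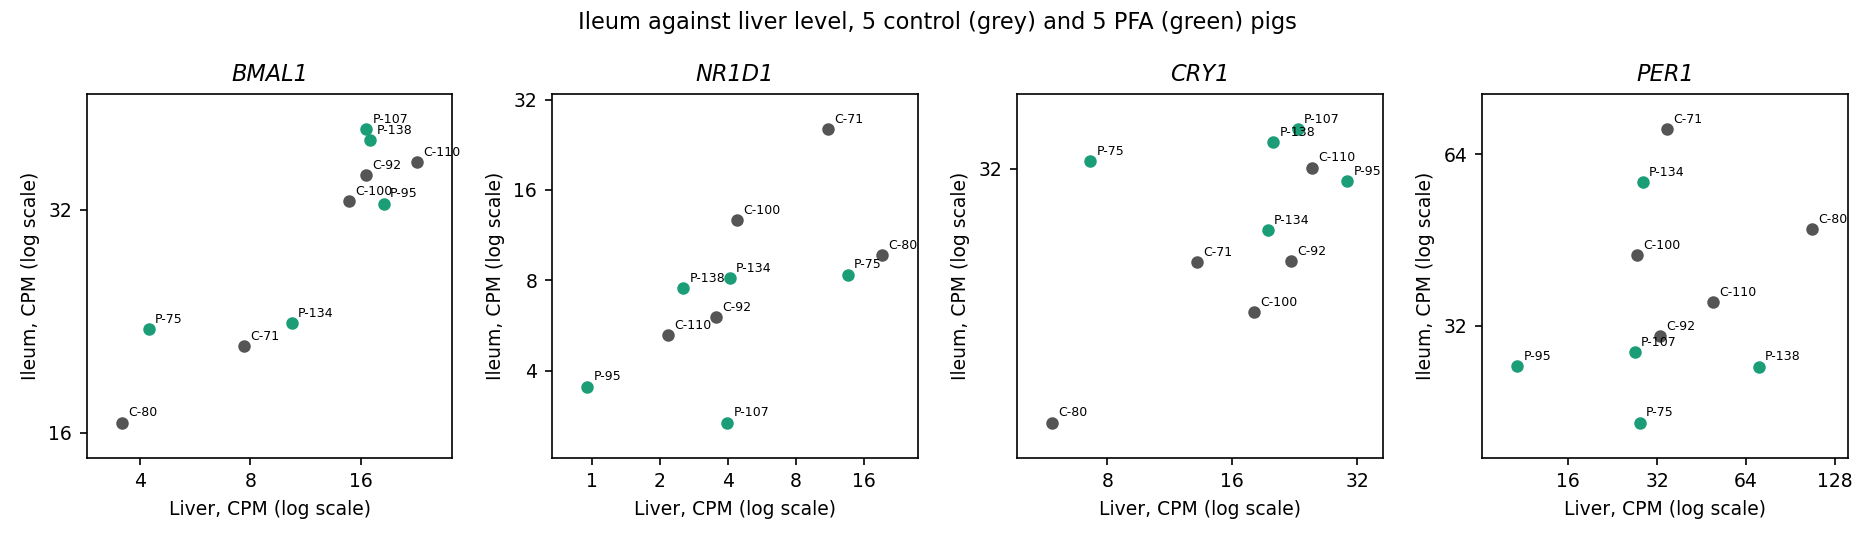
Ileum level against liver level (CPM, log2 axes) of BMAL1, NR1D1, CRY1 and PER1 in the 10 pigs with both tissues. For BMAL1 the 4 pigs at 16.5 to 22.5 CPM in the ileum are separated from the 6 pigs at 32.6 to 41.1 CPM.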

How the data were processed

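RNA was sequenced from poly(A) stranded libraries. The authors deposited gene counts per library, made per the submitters' processing notes with STAR 2.6.1d, HTSeq, DESeq2 1.22.2 and Sscrofa11.1; the strand option of the counting is not given in the sources used here, so that reads of overlapping antisense genes cannot be told apart. Genes passing edgeR's filterByExpr were kept (13831 in liver, 14300 in ileum, 14264 for both). Diets were tested with edgeR 4.0.16 (quasi-likelihood, TMM, Benjamini-Hochberg, adjusted p of at most 0.05) and tissues with the pig as block; same numbers in both tissues are the same pig, and the median correlation of ileum and liver over genes was 0.126. DESeq2 1.42.0 was an alternative. Correlations used log2 CPM with a prior count of 2 and Pearson's r (numpy 2.4.6, scipy 1.17.1). Within the liver, values were centred on the diet mean and tested by 100000 permutations within diets. For the agreement of tissues, values were not centred, and the 100000 permutations ran over all 10 pigs without regard to diet. Where p-values compare diets, the pigs are separate animals of 1 pen per diet. A GC value was found for 79.8% of liver genes, under the 80% needed, so the GC check over all genes is void and was run among those genes only. All 10 members, all other listed genes that were called, BMAL1, NPAS2, and the genes of highest and lowest r with each member were named, except for an item that is not reported here. Members, lists and rules were chosen with earlier results of these data known. Scripts were tested on simulated data.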

Additional observations from a re-analysis of the deposited data

Results flagged for a closer look

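Each gene was screened in each diet and tissue group for 1 sample standing far from the others, by Dixon's ratio of the gap to the range at the 95% level. Of 66 sets of gene and group, 7 passed, where chance passes about 1 in 20. PER1 was 70.7 CPM in the liver of the PFA pig P-138 against 28.6 CPM in the next PFA liver, and 57.2 CPM in the ileum of the PFA pig P-134 against 28.8 CPM in the next. The liver of the OO + PFA pig OP-79 stood above the others in DBP (13.5 against 5.54 CPM) and in CIART (6.72 against 3.65 CPM). CIART was 2.30 CPM in the liver of the PFA pig P-95, which had the highest CRY1 and the lowest NR1D1 of all 23 livers, and 3.11 CPM in the next PFA liver. NR1D2 was 49.2 CPM in the ileum of the CTR pig C-100, below the next at 67.1 CPM. NPAS2 was 3.58 CPM in the liver of the OO pig OO-99 against 1.95 CPM in the next OO liver. Of the 23 livers, OP-79 had the highest and P-95 the lowest slope of expression on GC content (0.487 and -0.475). The ileum of P-134 had the highest ileum slope (0.373), and the other flagged libraries were at neither end. Within diets, r with this slope was 0.65 for liver DBP, 0.31 for liver CIART and 0.81 for ileum PER1. Its part in the flags was not tested.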

How the results depend on the processing

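With 5 to 6 pigs per diet, the standard error of the log2 change of NR1D1 in OO against CTR was 0.609. A call needs a change well above its standard error, so that changes of that size and considerably larger ones could go uncalled. Over the 4 liver diets, 1 of the 9 genes was called with DESeq2 and 0 to 1 when single livers were left out (1 without P-138). With a term for the pig number, 1 was called for the oxidized oil (CRY1, -0.73, adjusted p = 0.0496), and BMAL1 was called in OO against CTR (-1.33, adjusted p = 0.0280). Leaving out single samples gave 0 in the other diet comparisons, 6 to 7 in the tissue comparison and 0 for the agreement of tissues. Without the replicate block, that is without pairing by pig, 6 genes were called between tissues, the same count as with it. Scaling by total counts turned the tissue differences of PER1 (0.068), CRY1 (0.79), NR1D1 (0.69), NR1D2 (0.77) and BHLHE40 (0.31) above 0. It shifted all genes alike, and the median of all genes became 1.14. Calls of covarying genes were summed over the 9 clock genes, so that 1 gene can count more than once. They numbered 9349, 561 with GC correction (among 11036 genes), 2770 with the title form subtracted and 19803 with the pig number as a term. The cause was not tested. None of the other 298 counts moved by over 1.5 times, but most main counts were 0, and a count that stays at 0 says little of stability. The alternatives with the pig number, and those with total counts, were chosen after seeing the data.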

Other observations

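The number in the library title, whose meaning the labels do not give, was read against the clock genes after the data had been seen. Over the 23 livers within diets, Pearson's r with this number was -0.755 for NR1D2 (rho = -0.765, permutation p = 5e-05, adjusted p = 0.0864), 0.744 for BMAL1 (rho = 0.782, permutation p = 0.00022, adjusted p = 0.145), 0.736 for CRY1 (rho = 0.741, permutation p = 0.00027, adjusted p = 0.161) and -0.674 for NR1D1 (rho = -0.708, permutation p = 0.00165, adjusted p = 0.272). Without the 2 livers farthest from the median number, r was -0.700 for NR1D2, 0.700 for BMAL1, 0.733 for CRY1 and -0.661 for NR1D1. Within the 14 livers with PigLiv titles and the 9 with PL titles, r was -0.842 and -0.805 for NR1D2, 0.865 and 0.587 for BMAL1, 0.862 and 0.655 for CRY1, and -0.811 and -0.496 for NR1D1. No gene of 13831 was called after adjustment, while 9.53% had an unadjusted p under 0.05, and NR1D2 ranked 10th, BMAL1 13th and CRY1 18th of all genes by the size of r. In the 10 ileum samples r was -0.669 for NR1D2, 0.643 for NPAS2 (0.653 in liver), 0.486 for BMAL1, 0.171 for CRY1 and -0.166 for NR1D1, and none of 14300 genes was called. These values depended on single samples. Without the 2 ileum samples farthest from the median number, r was -0.604 for NR1D2, 0.889 for NPAS2 and 0.879 for BMAL1. It was then 0.477 for CRY1 and -0.818 for NR1D1, without a test.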
